A study of Homo sapiens with 9 samples.

Results

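Besides collagen, fibroblasts secrete a second set of matrix proteins: adhesive glycoproteins, the components of elastic fibres, proteoglycans, and the enzymes that crosslink fibres. The transcripts of 44 such genes were followed in IMR90 cells, which are human fetal lung fibroblasts. The genes were taken as a fixed list of symbols, each mapped to its Ensembl gene, out of 64253 gene identifiers in the deposited count files. They comprise 11 adhesive and matricellular genes, 10 of elastic fibres and microfibrils, 4 latent TGF-beta binding genes, 5 of the lysyl oxidase family, 9 small leucine-rich genes, 4 of large proteoglycans and basement membrane, and MGP.

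RNA was sequenced in 3 groups of 3 libraries, with replicates lettered a, b and c. The vector control cells carried pLKO.1 alone, which the sample labels call empty and the treatment protocol calls a GFP vector, and are labelled as control. The shRRM2 cells carried a hairpin against RRM2, a subunit of the enzyme that makes deoxyribonucleotides, and are labelled as senescent. The shRRM2/shp16 cells received the RRM2 hairpin and then a hairpin against p16, with the label of a senescence bypass. There was no group with only the p16 hairpin. All groups were IMR90 cells at population doubling 30, kept in 2% oxygen, infected in 2 rounds 24 hours apart and selected with 3 ug/mL puromycin for 7 days, per the labels. Whether the replicates were separate cultures is not stated, so p-values measure the spread between these libraries, which may be technical.

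Fibronectin and thrombospondins link cells to the matrix through integrins and other receptors. Elastic fibres form when elastin is laid on a scaffold of fibrillin microfibrils with the help of fibulins, and lysyl oxidases then crosslink elastin and collagen. Small leucine-rich proteoglycans bind collagen fibrils and set their spacing, versican binds hyaluronan to form a hydrated pericellular coat, and perlecan and nidogens belong to basement membranes. Latent TGF-beta binding proteins tether the inactive growth factor to this network.

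The gene rows summed to 15770895 to 24873291 counts per library. RRM2, the targeted gene, had mean levels of 485, 62.1 and 177 CPM (counts relative to the TMM-scaled library size) in vector control, shRRM2 and shRRM2/shp16. CDKN2A, which encodes p16, stood at 6.02, 6.5 and 4.28 CPM, counted over the whole locus. RRM2 was 2.85-fold higher in shRRM2/shp16 than in shRRM2, so these groups differed in RRM2 level as well as in the added hairpin. The part of either in the results was not tested. MKI67, a proliferation marker, had means of 1036, 322 and 389 CPM. Reads outside annotated genes took 17.6% to 18.9% of uniquely aligned reads in vector control, 27.7% to 28.8% in shRRM2 and 23.5% to 24.4% in shRRM2/shp16. All 7 fibroblast markers were detected, with summed levels of 26590.2 to 27459, 26115 to 26918 and 22484 to 23086 CPM in vector control, shRRM2 and shRRM2/shp16. These markers did not move together: in shRRM2/shp16 against vector control PDGFRA was 2.69-fold and COL3A1 2.11-fold higher, while VIM was 2.5-fold and THY1 2.09-fold lower. Of the other cell types checked, 4 of 5 smooth muscle markers passed the filter, and all 5 summed to 1083 to 1115, 739.9 to 754.5 and 377 to 391 CPM in the same order. The 5 endothelial markers, of which 3 passed the filter, summed to 65.0 to 70.1, 67.5 to 71.6 and 114 to 122 CPM, most of it TEK. The 6 epithelial markers, 3 of them past the filter, summed to 24.1 to 25.3, 12.0 to 13.4 and 3.34 to 5.59 CPM, most of it CLDN4, with KRT5 and SFTPC at 0 counts in every library. The 5 leukocyte markers, 1 past the filter, summed to at most 3.27 CPM, with CD3E at 0. The part of these shifts in the results was not tested.

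The 44 genes together took 3.54% to 3.58% of counts in the vector control libraries, 4.38% to 4.50% in shRRM2 and 2.92% to 2.96% in shRRM2/shp16, and the 3 ranges did not overlap. FN1 took 1.05% to 1.07%, 1.45% to 1.52% and 0.684% to 0.697% of counts in the 3 groups, more than any other of these genes. THBS1 took 0.806% to 0.814%, 1.185% to 1.22% and 0.480% to 0.486%. TGFBI took 0.427% to 0.435%, 0.386% to 0.3945% and 0.579% to 0.595%. The sum of the 44 is weighted to such high genes and does not show that the set moved together. TNXB, OGN, ASPN and ECM2 had 0 to 5 counts in any library and were not tested, which left 40 tested genes. Bulk RNA does not tell fewer cells of a kind from less RNA per cell.

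In shRRM2 against vector control, 19 of the 40 tested genes were higher and 14 lower at an adjusted p under 0.05 in edgeR's quasi-likelihood test, and 7 did not pass. Over all 16561 tested genes, 29.0% were higher and 31.8% lower by the same rule. The 2 groups did not overlap for 33 of the 40 genes, against 63.6% of all tested genes. At least a 2-fold change was called for 5 of them, against 10.1% of all tested genes. The median size of the change was 0.44 on the log2 scale for the 40 genes and 0.32 for all tested genes, and the signed medians were 0.058 and 0.002.

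Between the 2 groups with the RRM2 hairpin, decreases outnumbered increases. In shRRM2/shp16 against shRRM2, 13 of the 40 genes were higher, 22 lower and 5 not past the threshold, where 31.9% of all tested genes were higher and 29.1% lower. The groups did not overlap for 34 of the 40, against 64.7%. A change of at least 2-fold was called for 10 of the 40, 4 higher and 6 lower, against 11.8% in either direction. The median size was 0.60 for the 40 genes and 0.32 for all tested genes, with signed medians of -0.13 and 0.011.

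In shRRM2/shp16 against vector control, 10 of the 40 genes were higher, 23 lower and 7 not past the threshold, beside 30.0% higher and 32.4% lower among all tested genes. Groups were apart for 34 of the 40 genes, against 66.2%, and 7 changed at least 2-fold, against 12.6%. The median size was 0.39 against 0.34, and the signed medians were -0.22 and 0.015. The 3 comparisons share libraries, so a gene that is high in 1 group moves all comparisons that use that group. The shares over all tested genes were not matched for expression level. Well-counted genes are more easily called and more easily apart between groups.

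**Figure D1:**
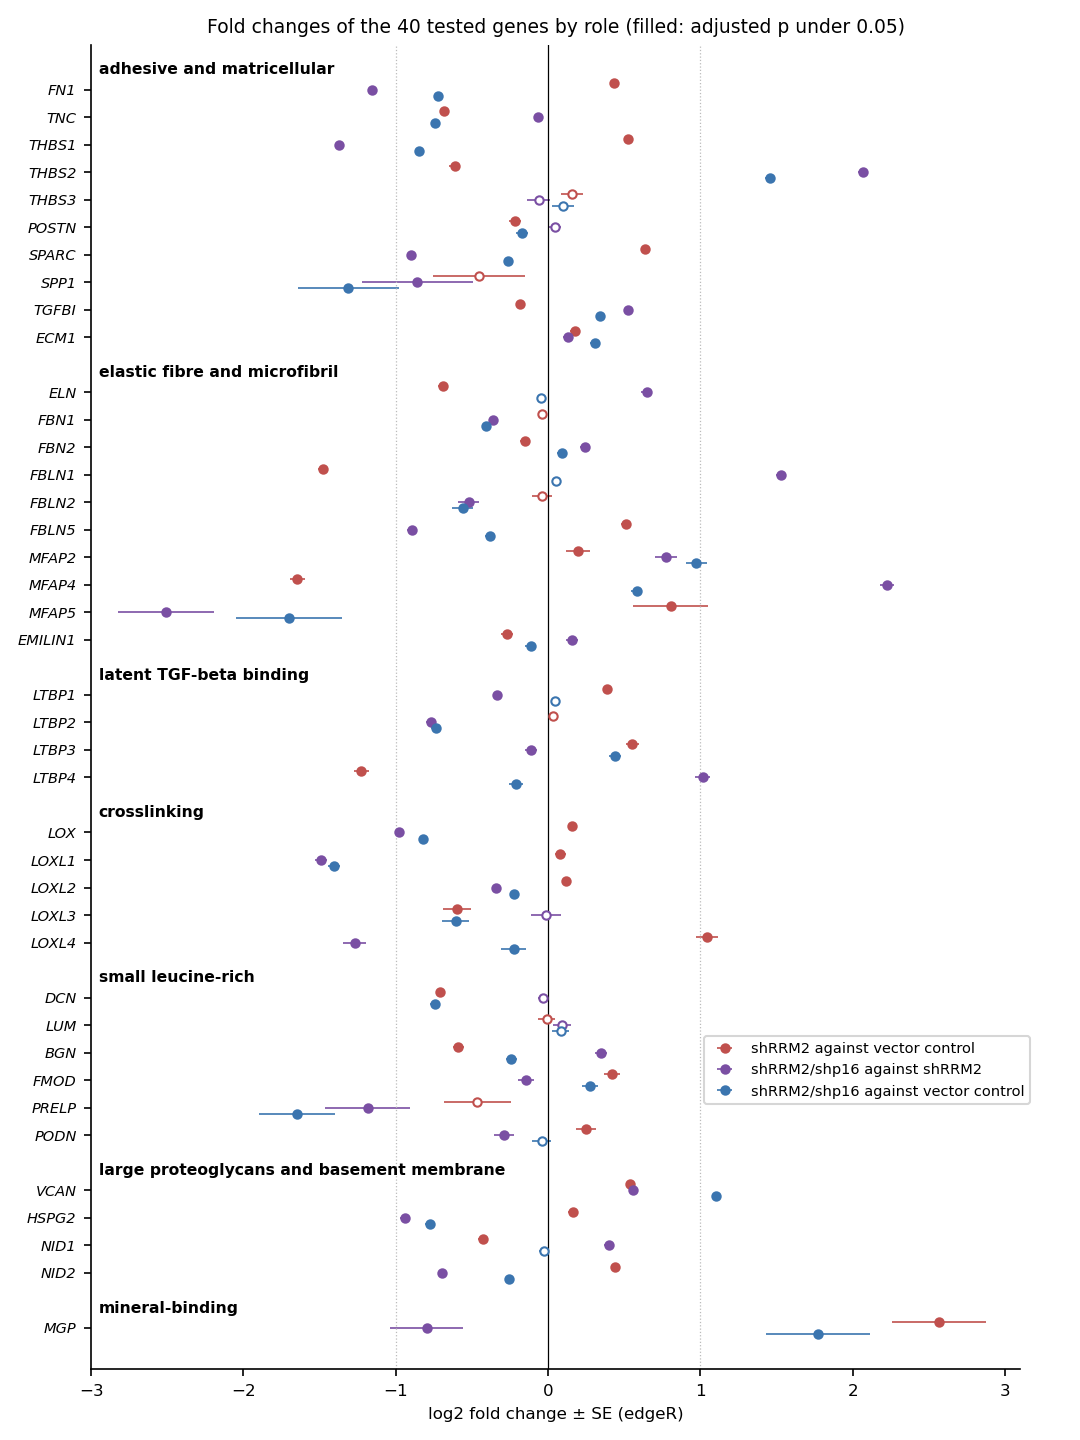
Fitted log2 fold change with its standard error (x axis) of each of the 40 tested genes (y axis, grouped by role) in the 3 comparisons. Filled points passed the adjusted p threshold of 0.05 and open points did not. THBS2 and MFAP4 lie furthest right in shRRM2/shp16 against shRRM2, at 2.07 and 2.23, and MFAP5, on few counts, furthest left at -2.51.

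RefSeq promoter windows on GRCh38.p14 are shown for genes that differed in opposite directions between shRRM2/shp16 and shRRM2. Of the 44 genes, 36 had a promoter entry, and for 17 the 140 bases from 250 to 111 before the start held no annotated exon. The windows printed are those of the 3 largest decreases (THBS1, LOXL4 and LOX) and the 3 largest increases (MFAP2, TGFBI and NID1) among called genes with such a window and a mean log2 CPM of at least 2, a choice made after the values were seen. Capitals mark matches on either strand to GGGCGG (the GC box), CCAAT (the CCAAT box), TGANTCA (AP-1-like, N being any base) and TGACGTCA (the cAMP response element).
THBS1 (chr15:39580829-39580968, plus strand): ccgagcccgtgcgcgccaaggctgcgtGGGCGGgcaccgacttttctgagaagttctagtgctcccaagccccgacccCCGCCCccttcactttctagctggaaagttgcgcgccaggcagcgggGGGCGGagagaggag
LOXL4 (chr10:98268305-98268444, minus strand): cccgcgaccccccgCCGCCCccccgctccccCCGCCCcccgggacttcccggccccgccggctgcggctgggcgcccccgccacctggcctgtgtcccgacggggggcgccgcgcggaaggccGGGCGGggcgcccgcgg
LOX (chr5:122078370-122078509, minus strand): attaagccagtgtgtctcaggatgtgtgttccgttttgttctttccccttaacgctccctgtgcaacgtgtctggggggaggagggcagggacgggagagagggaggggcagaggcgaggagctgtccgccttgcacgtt
MFAP2 (chr1:16981694-16981833, minus strand): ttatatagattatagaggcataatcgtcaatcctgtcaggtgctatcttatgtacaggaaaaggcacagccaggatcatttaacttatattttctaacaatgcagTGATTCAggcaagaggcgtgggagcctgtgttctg
TGFBI (chr5:136028738-136028877, plus strand): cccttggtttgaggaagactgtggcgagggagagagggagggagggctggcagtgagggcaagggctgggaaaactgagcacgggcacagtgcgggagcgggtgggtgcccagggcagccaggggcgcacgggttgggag
NID1 (chr1:236065201-236065340, minus strand): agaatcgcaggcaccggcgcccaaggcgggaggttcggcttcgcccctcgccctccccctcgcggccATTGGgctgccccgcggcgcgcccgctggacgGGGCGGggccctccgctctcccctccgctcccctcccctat
THBS1 and LOXL4 each held 3 GC boxes and NID1 held 1, while LOX, MFAP2 and TGFBI held 0. The GC box was in 6 of the 17 windows of these genes and in 23.97% of 35116 RefSeq promoter windows of the same length. Those 35116 windows were not screened for exons, so the 2 sets are not fully alike. NID1 was the 1 gene of the 17 with a CCAAT box (17.5% of all windows). MFAP2, with TGATTCA, was 1 of 3 with an AP-1-like element (3.52%). The cAMP response element was in 0 of the 17 (0.39% of all windows). Such matches describe letters in these windows and do not show binding.

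Among the adhesive and matricellular genes, fibronectin, thrombospondin 1 and SPARC were highest in shRRM2 and lowest in shRRM2/shp16, while thrombospondin 2 and TGFBI were lowest in shRRM2 and highest in shRRM2/shp16. Of the 10 tested genes of this group, 4 were higher and 4 lower in shRRM2 than in vector control, 3 were higher and 5 lower in shRRM2/shp16 than in shRRM2, and 3 were higher and 6 lower in shRRM2/shp16 than in vector control. Of all tested genes, 29.0% and 31.8%, 31.9% and 29.1%, and 30.0% and 32.4% were higher and lower in these comparisons, so 4 of 10 either way in the first lies near the background. FN1 (ENSG00000115414, chr2:215360440-215436172, minus strand), the main adhesive glycoprotein that cells assemble into fibrils, was counted at 11146, 10838 and 10994 CPM in vector control, 14494, 14655 and 15346 in shRRM2, and 6735, 6586 and 6671 in shRRM2/shp16. Every shRRM2 library lay above every vector control library, and every shRRM2/shp16 library lay below both. FN1 rose in shRRM2 by 0.43 ± 0.022 (log2 ± SE, edgeR adjusted p 5.6e-21), and shRRM2/shp16 differed from shRRM2 by -1.15 ± 0.022 (adjusted p 7.0e-37), or 2.23-fold lower. Against vector control the shRRM2/shp16 value was -0.72 ± 0.022 (adjusted p 2.1e-29).

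THBS1 (ENSG00000137801, chr15:39581079-39599466, plus strand), a matricellular glycoprotein that can activate latent TGF-beta, followed the same order. Its level was 8488, 8324 and 8351 CPM in vector control, 11864, 12032 and 12341 in shRRM2, and 4678, 4684 and 4629.7 in shRRM2/shp16, with no overlap between any pair of groups. THBS1 changed by 0.53 ± 0.021 in shRRM2 (adjusted p 1.3e-24), by -1.37 ± 0.022 from shRRM2 to shRRM2/shp16 (adjusted p 3.7e-40) and by -0.85 ± 0.022 against vector control (adjusted p 1.5e-32). THBS2 (ENSG00000186340, chr6:169215780-169254044, minus strand), its close relative, moved the other way. It was at 119, 122 and 119.9 CPM in vector control, 76.8, 78.3 and 81.2 in shRRM2, and 329, 333 and 330.5 in shRRM2/shp16, so the 3 groups were again apart. THBS2 was lower in shRRM2 than in vector control (-0.61 ± 0.036, adjusted p 6.3e-19) and 4.2-fold higher in shRRM2/shp16 than in shRRM2 (2.07 ± 0.033, adjusted p 6.8e-40). Against vector control THBS2 was 2.75-fold higher in shRRM2/shp16 (1.46 ± 0.031, adjusted p 2.5e-35). THBS3 did not pass in any comparison, with log2 fold changes of 0.16, -0.062 and 0.10 on 18.6 to 20.8 CPM. THBS3 passed in shRRM2 against vector control without shRRM2 replicate a (0.23, 0.0123), and 22.2% of its exon length is shared with an antisense transcript.

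SPARC, a collagen-binding matricellular protein also called osteonectin, was counted at 1610.2, 1636 and 1609 CPM in vector control, 2527, 2532 and 2509.6 in shRRM2, and 1356, 1352 and 1346 in shRRM2/shp16. All 3 groups were separate, with shRRM2 highest. SPARC rose by 0.64 ± 0.023 in shRRM2 (adjusted p 8.3e-27) and changed by -0.90 ± 0.023 from shRRM2 to shRRM2/shp16 (adjusted p 1.7e-32), ending at -0.26 ± 0.023 against vector control (adjusted p 1.6e-13). TGFBI, a TGF-beta induced adhesion protein, was at 4538, 4399 and 4432 CPM in vector control, 3865, 3972 and 3942 in shRRM2, and 5748, 5581 and 5612 in shRRM2/shp16. The shRRM2 libraries were lowest and the shRRM2/shp16 libraries highest. TGFBI changed by -0.18 ± 0.022 (adjusted p 2.2e-09), 0.52 ± 0.022 (adjusted p 4.5e-24) and 0.34 ± 0.022 (adjusted p 1.2e-17) in shRRM2 against vector control, shRRM2/shp16 against shRRM2 and shRRM2/shp16 against vector control.

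TNC, an anti-adhesive glycoprotein of wounds and developing tissue, went from 2002, 1952 and 1961 CPM in vector control to 1203, 1225 and 1264 in shRRM2 and 1199.5, 1153 and 1182 in shRRM2/shp16. Both groups with the RRM2 hairpin lay below vector control, and the distance between them was small. TNC changed by -0.68 ± 0.025 in shRRM2 against vector control (adjusted p 1.8e-26) and stood at -0.74 ± 0.025 in shRRM2/shp16 (adjusted p 3.0e-28). The further step from shRRM2 to shRRM2/shp16 was -0.063 ± 0.025 (adjusted p 0.0258), and it did not pass without shRRM2 replicate c (-0.044, 0.142), shRRM2/shp16 replicate b (-0.041, 0.22) or shRRM2/shp16 replicate c (-0.061, 0.0733) (log2 fold change and adjusted p in brackets). POSTN (periostin), which binds collagen and tenascin, was at 97, 93.8 and 95.9 CPM in vector control, 81.1, 80.5 and 84.8 in shRRM2, and 85, 85.3 and 84.3 in shRRM2/shp16. Vector control was the highest group, and the other two overlapped. POSTN changed by -0.22 ± 0.039 (adjusted p 4.6e-06) and -0.17 ± 0.038 (adjusted p 1.3e-04) in shRRM2 and shRRM2/shp16 against vector control, and the value between these 2 groups was 0.048 ± 0.039 (adjusted p 0.298). ECM1, a glycoprotein of skin and basement membrane, was higher by 0.18 in shRRM2 and by 0.31 in shRRM2/shp16 against vector control, from 158 ± 5.86 CPM (SD, n = 3). SPP1 (osteopontin) rested on 6 to 27 counts a library. SPP1 was lower in shRRM2/shp16 than in vector control (-1.31 ± 0.33, adjusted p 6.4e-04). Without shRRM2/shp16 replicate c this became -1.94, and the value against shRRM2 -1.49. The SPP1 call against shRRM2 (-0.86 ± 0.363, adjusted p 0.0384) was lost without shRRM2 replicate a (-0.90, 0.0538), shRRM2 replicate b (-0.92, 0.0503), shRRM2 replicate c (-0.74, 0.126), shRRM2/shp16 replicate a (-0.66, 0.154) or shRRM2/shp16 replicate b (-0.56, 0.225) and with DESeq2 (adjusted p 0.0878).

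**Figure D2:**
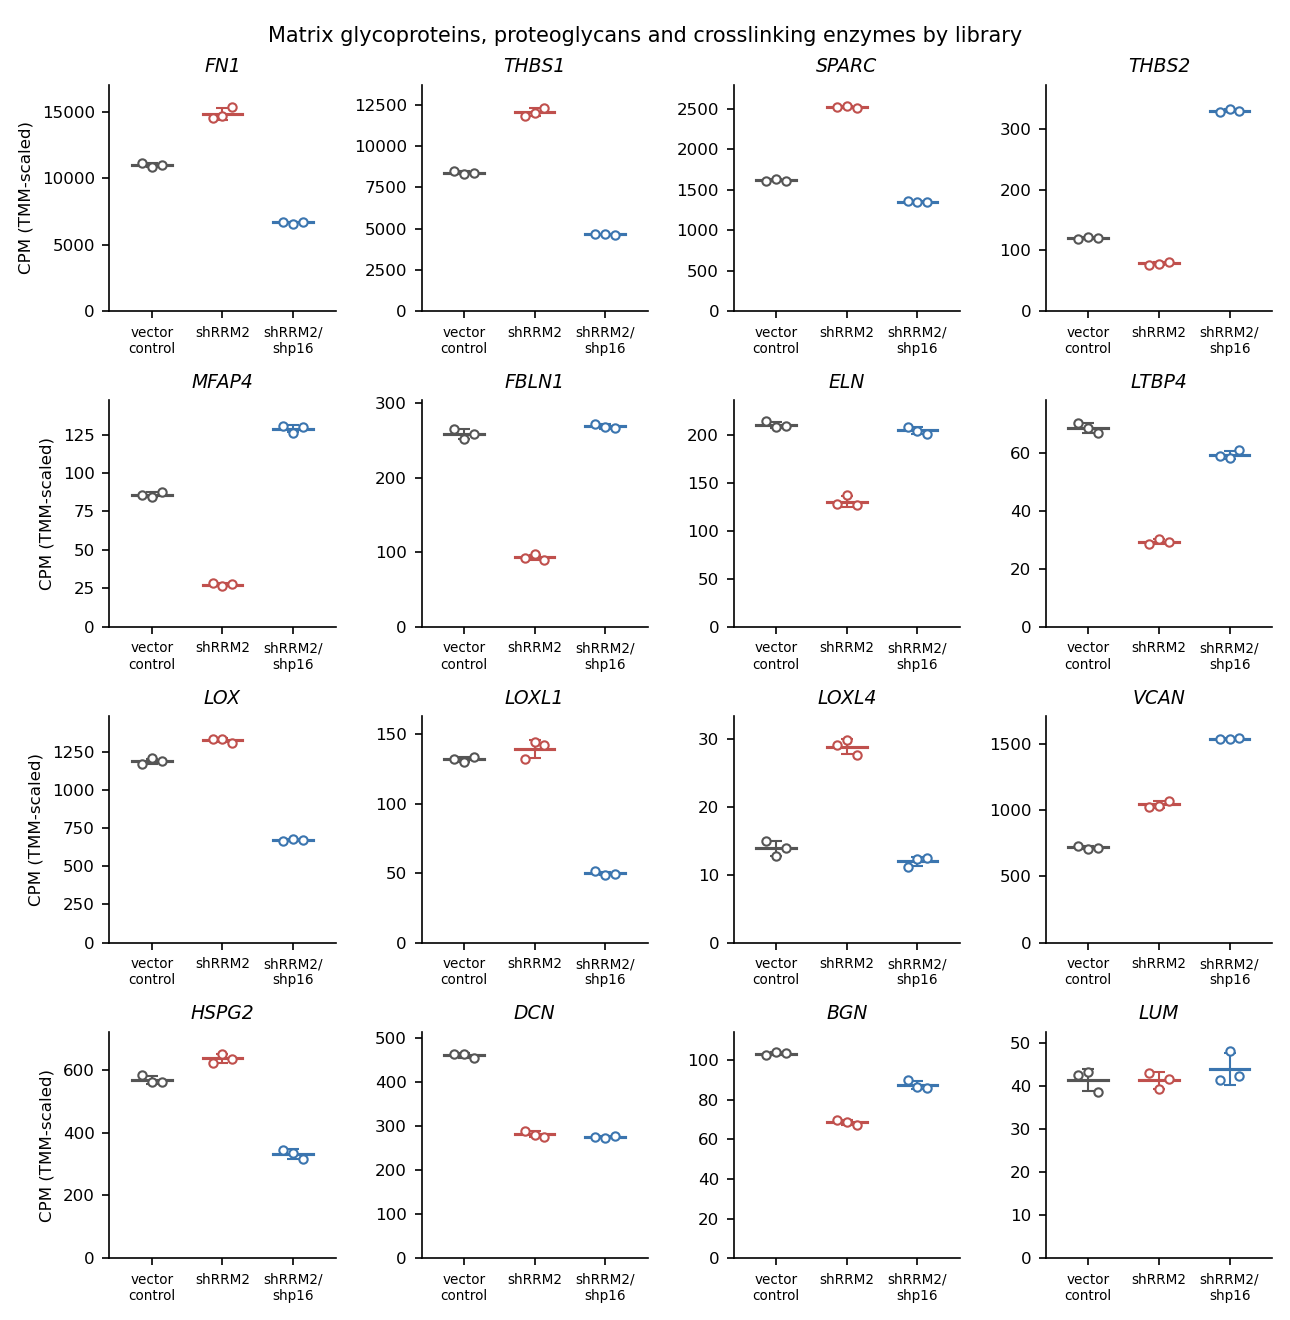
TMM-scaled CPM (y axis, from 0) of 16 genes in the 3 vector control, 3 shRRM2 and 3 shRRM2/shp16 libraries (x axis). Open circles are libraries, the horizontal line is the group mean and the error bar its SD. FN1, THBS1 and SPARC peak in shRRM2, MFAP4, FBLN1, ELN and LTBP4 dip there, VCAN climbs from group to group, and the 3 groups of LUM overlap.

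Of the elastic fibre and microfibril genes, elastin, fibulin 1 and MFAP4 were lowest in shRRM2, whereas fibulin 5 was highest there. All 10 were tested. In shRRM2 against vector control 3 were higher and 5 lower, in shRRM2/shp16 against shRRM2 6 were higher and 4 lower, and in shRRM2/shp16 against vector control 3 were higher and 5 lower. The matching shares of all tested genes were 29.0% and 31.8%, 31.9% and 29.1%, and 30.0% and 32.4%, and 3 of 10 higher is near them. ELN (ENSG00000049540, chr7:74027789-74069907, plus strand), which encodes the elastic core protein, was at 214, 208 and 209 CPM in vector control, 128, 137 and 126 in shRRM2, and 208, 204 and 201 in shRRM2/shp16. The shRRM2 libraries lay below the other 6, whose 2 groups overlapped. ELN changed by -0.69 ± 0.034 in shRRM2 against vector control (adjusted p 7.9e-22) and by 0.65 ± 0.034 in shRRM2/shp16 against shRRM2 (adjusted p 5.6e-21). Its value in shRRM2/shp16 against vector control, -0.043 ± 0.032, did not pass (adjusted p 0.245).

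MFAP4 (ENSG00000166482, chr17:19383442-19387240, minus strand), a microfibril-associated glycoprotein that binds elastin and fibrillin, had the largest decrease of the well-counted genes in shRRM2. Its libraries gave 85.5, 84.3 and 87.9 CPM in vector control, 28.5, 26.4 and 27.6 in shRRM2, and 130.4, 126 and 129.8 in shRRM2/shp16, with the groups apart. MFAP4 was 3.13-fold lower in shRRM2 than in vector control (-1.65 ± 0.047, adjusted p 3.3e-30) and 4.68-fold higher in shRRM2/shp16 than in shRRM2 (2.23 ± 0.045, adjusted p 3.4e-36). It ended above vector control by 0.58 ± 0.037 (adjusted p 6.1e-18). FBLN1 (ENSG00000077942, chr22:45502238-45601135, plus strand), a fibulin that binds fibronectin and elastin, was at 265, 251 and 259 CPM in vector control, 92.5, 97 and 89.4 in shRRM2, and 272, 268 and 266 in shRRM2/shp16. The shRRM2 libraries stood far below the others. FBLN1 changed by -1.48 ± 0.034 (adjusted p 1.3e-33) in shRRM2 against vector control and by 1.53 ± 0.034 (adjusted p 1.5e-34) in shRRM2/shp16 against shRRM2. Between shRRM2/shp16 and vector control it differed by 0.055 ± 0.031 (adjusted p 0.119), which passed without control replicate a (0.08, 0.028) (log2 fold change and adjusted p in brackets).

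FBN1 (fibrillin 1), the main microfibril protein, was counted at 1076, 1046 and 1051 CPM in vector control, 1014, 1033 and 1041 in shRRM2, and 809.8, 803 and 786 in shRRM2/shp16. The shRRM2 libraries lay just below vector control, and the shRRM2/shp16 libraries far below both. FBN1 in shRRM2/shp16 changed by -0.36 ± 0.025 against shRRM2 (adjusted p 6.0e-17) and -0.40 ± 0.025 against vector control (adjusted p 1.2e-18), while the shRRM2 value of -0.04 ± 0.025 did not pass (adjusted p 0.159). FBN2, a fibrillin of early microfibrils, was at 173 ± 7.01, 156 ± 1.64 and 184 ± 3.7 CPM in the 3 groups, and its log2 fold changes were -0.15, 0.24 and 0.09. The last of these did not pass without control replicate c (0.063, 0.141). MFAP2, another microfibril protein, was at 14.2, 15.9 and 15.2 CPM in vector control, 18.4, 18.1 and 15.4 in shRRM2, and 29, 29.3 and 30.4 in shRRM2/shp16. The shRRM2/shp16 libraries lay above the rest, and the other two groups overlapped. MFAP2 was 1.71-fold higher in shRRM2/shp16 than in shRRM2 (0.78 ± 0.07, adjusted p 5.7e-13) and 1.96-fold higher than in vector control (0.97 ± 0.07, adjusted p 3.4e-16). Its smaller change in shRRM2 (0.20 ± 0.079, adjusted p 0.028) did not pass with DESeq2 (adjusted p 0.0517) or without control replicate a (0.15, 0.14), control replicate c (0.20, 0.0552), shRRM2 replicate a (0.16, 0.123) or shRRM2 replicate b (0.17, 0.108).

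Among the remaining elastic fibre genes, FBLN5, a fibulin needed for elastic fibre assembly, had the same order of groups as fibronectin. FBLN5 was at 157 ± 5.38 CPM in vector control, 223 ± 2.58 in shRRM2, and 121 ± 0.636 in shRRM2/shp16, with log2 fold changes of 0.51, -0.89 and -0.38. FBLN2 was at 27.9 ± 1.22, 27.2 ± 2.25 and 19 ± 0.734 CPM, and shRRM2/shp16 was below both shRRM2 (-0.52) and vector control (-0.56). EMILIN1, an elastin interface protein, was at 211 ± 11.6, 175 ± 6.61 and 196 ± 10.8 CPM, with log2 fold changes of -0.27, 0.16 and -0.11. The last was lost without control replicate a (-0.058, 0.168) or shRRM2/shp16 replicate b (-0.065, 0.175). MFAP5 rested on 4 to 40 counts a library, at 1.23 ± 0.331 CPM in vector control, 2.21 ± 0.324 in shRRM2, and 0.38 ± 0.15 in shRRM2/shp16. MFAP5 was higher in shRRM2 (adjusted p 0.00456) and lower in shRRM2/shp16 than in either other group (adjusted p 3.8e-09 and 3.8e-05).

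The 4 latent TGF-beta binding genes, which resemble fibrillins, did not all move together, though LTBP1 and LTBP3 had the same order of groups. LTBP1 (ENSG00000049323, chr2:32946972-33399509, plus strand) was at 952, 938 and 952 CPM in vector control, 1214, 1246 and 1256 in shRRM2, and 998, 972 and 972 in shRRM2/shp16. The shRRM2 libraries were the highest, and shRRM2/shp16 lay just above vector control. LTBP1 rose by 0.39 ± 0.024 in shRRM2 (adjusted p 7.2e-18) and changed by -0.34 ± 0.024 from there to shRRM2/shp16 (adjusted p 4.7e-16). Against vector control the shRRM2/shp16 value was 0.049 ± 0.024 (adjusted p 0.0776), and this passed without control replicate a (0.059, 0.0474), shRRM2 replicate a (0.055, 0.0493), shRRM2 replicate b (0.055, 0.0499), shRRM2 replicate c (0.056, 0.0339) or shRRM2/shp16 replicate b (0.065, 0.0488). LTBP4 (ENSG00000090006, chr19:40592883-40629818, plus strand), a form that also serves elastic fibre assembly, was at 70.2, 68.6 and 66.8 CPM in vector control, 28.5, 30.3 and 29.2 in shRRM2, and 59, 58.2 and 60.8 in shRRM2/shp16. The groups were apart with shRRM2 lowest. LTBP4 changed by -1.23 ± 0.049 (adjusted p 7.5e-25), 1.02 ± 0.05 (adjusted p 9.3e-22) and -0.21 ± 0.043 (adjusted p 4.6e-05) in the 3 comparisons.

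LTBP3 was at 72.2, 69.5 and 68.6 CPM in vector control, 106, 107 and 97 in shRRM2, and 95.5, 94.5 and 96.1 in shRRM2/shp16, so that both groups with the RRM2 hairpin were above vector control. LTBP3 rose by 0.55 ± 0.041 in shRRM2 (adjusted p 1.4e-15) and by 0.44 ± 0.041 in shRRM2/shp16 (adjusted p 8.1e-13). The difference between those groups, -0.11 ± 0.04 (adjusted p 0.0131), did not pass without shRRM2 replicate a (-0.10, 0.0683), shRRM2 replicate b (-0.084, 0.0998) or shRRM2/shp16 replicate b (-0.10, 0.0626). LTBP2, which binds microfibrils but not TGF-beta, was at 419 ± 10.6, 429.6 ± 9.51 and 252 ± 5.48 CPM. LTBP2 in shRRM2/shp16 was below shRRM2 (-0.77 ± 0.029, adjusted p 4.6e-26) and vector control (-0.74 ± 0.029, adjusted p 1.6e-25).

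The crosslinking enzymes LOX, LOXL1, LOXL2 and LOXL4 were highest in shRRM2 and lowest in shRRM2/shp16. Of the 5 lysyl oxidase genes, 4 were higher and 1 lower in shRRM2 than in vector control, 4 were lower and 0 higher in shRRM2/shp16 than in shRRM2, and 5 of 5 were lower in shRRM2/shp16 than in vector control. Against these counts stood 29.0% higher and 31.8% lower of all tested genes, then 29.1% lower and 31.9% higher, then 32.4% lower. The call of LOXL1 in shRRM2 and that of LOXL4 in shRRM2/shp16 against vector control did not hold in every alternative, as given with each gene. LOX (ENSG00000113083, chr5:122063195-122078360, minus strand), the founding member, was at 1172, 1206 and 1186 CPM in vector control, 1334, 1334 and 1309.7 in shRRM2, and 666, 681 and 669 in shRRM2/shp16. The shRRM2/shp16 libraries were far below the other 6. LOX rose by 0.16 ± 0.024 in shRRM2 (adjusted p 2.5e-07), then stood 1.97-fold lower in shRRM2/shp16 than in shRRM2 (-0.98 ± 0.025, adjusted p 8.9e-33) and 1.77-fold lower than in vector control (-0.82 ± 0.024, adjusted p 5.0e-30).

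LOXL1 (ENSG00000129038, chr15:73925989-73952137, plus strand), which acts mainly on elastin, was at 132, 129.9 and 134 CPM in vector control, 132, 144 and 143 in shRRM2, and 51.3, 48.9 and 49.3 in shRRM2/shp16. Its vector control and shRRM2 libraries overlapped, and the shRRM2/shp16 libraries lay well below. LOXL1 was 2.81-fold lower in shRRM2/shp16 than in shRRM2 (-1.49 ± 0.041, adjusted p 3.1e-31) and 2.65-fold lower than in vector control (-1.41 ± 0.041, adjusted p 1.7e-30). The change in shRRM2 was 0.082 ± 0.036 (adjusted p 0.0477), and it did not pass with DESeq2 (adjusted p 0.0523) or without control replicate a (0.087, 0.0558), control replicate b (0.073, 0.119), control replicate c (0.082, 0.0913), shRRM2 replicate b (0.064, 0.178) or shRRM2 replicate c (0.074, 0.114). LOXL1 shares 9.2% of its exon length with LOXL1-AS1 on the other strand. LOXL4 (ENSG00000138131, chr10:98247690-98268250, minus strand) was at 15, 12.8 and 13.9 CPM in vector control, 29.1, 29.9 and 27.7 in shRRM2, and 11.2, 12.3 and 12.5 in shRRM2/shp16. The shRRM2 libraries were far above the rest. LOXL4 changed by 1.04 ± 0.073 in shRRM2 (adjusted p 2.0e-16) and by -1.27 ± 0.075 from there to shRRM2/shp16 (adjusted p 5.3e-19). Its value against vector control, -0.23 ± 0.083 (adjusted p 0.0167), did not pass with DESeq2 (adjusted p 0.0501) or without control replicate a (-0.15, 0.168) or shRRM2/shp16 replicate a (-0.17, 0.111).

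LOXL2, an enzyme that crosslinks basement membrane collagen, was at 938 ± 11.4, 1020.4 ± 9.86 and 804 ± 16.5 CPM, with log2 fold changes of 0.12, -0.34 and -0.22. LOXL3 was at 14.5 ± 0.903, 9.56 ± 0.432 and 9.45 ± 0.928 CPM. LOXL3 was lower than vector control in shRRM2 (-0.59 ± 0.092, adjusted p 3.6e-07) and in shRRM2/shp16 (-0.61 ± 0.089, adjusted p 1.1e-07), and 14.3% of its exon length overlaps HTRA2 on the other strand.

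Of the 9 small leucine-rich genes, 6 were tested. In shRRM2 against vector control 2 were higher and 2 lower, in shRRM2/shp16 against shRRM2 1 was higher and 3 lower, and in shRRM2/shp16 against vector control 1 was higher and 3 lower. With 29.0% and 31.8%, 31.9% and 29.1%, and 30.0% and 32.4% of all tested genes higher and lower, 2 of 6 either way in the first comparison is near the background. DCN (ENSG00000011465, chr12:91140484-91183123, minus strand), decorin, which binds collagen fibrils and TGF-beta, was at 462, 464 and 453 CPM in vector control, 288, 280.3 and 276 in shRRM2, and 276, 272 and 276 in shRRM2/shp16. Both groups with the RRM2 hairpin lay below vector control and overlapped each other. DCN was 1.64-fold lower in shRRM2 (-0.71 ± 0.028, adjusted p 3.2e-25) and 1.67-fold lower in shRRM2/shp16 (-0.74 ± 0.028, adjusted p 2.0e-26) than in vector control, with -0.035 ± 0.028 between the last 2 groups (adjusted p 0.3).

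LUM (ENSG00000139329, chr12:91102629-91111831, minus strand), lumican, lies beside DCN in a cluster on chromosome 12 but gave 42.6, 43.3 and 38.5 CPM in vector control, 43.2, 39.2 and 41.7 in shRRM2, and 41.3, 48.2 and 42.5 in shRRM2/shp16. The 3 groups overlapped. LUM had log2 fold changes of -0.009 ± 0.058, 0.093 ± 0.057 and 0.084 ± 0.056 in the 3 comparisons (adjusted p 0.901, 0.159 and 0.194). The other genes of that cluster, EPYC and KERA, had 0 or 1 counts in each library. The chromosome 9 cluster of ECM2, ASPN, OMD and OGN had at most 5 counts per gene and library, which does not allow a difference to be seen.

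BGN (ENSG00000182492, chrX:153494939-153509554, plus strand), biglycan, the closest relative of decorin, was at 102, 104 and 103 CPM in vector control, 69.8, 68.8 and 67.4 in shRRM2, and 89.8, 86.4 and 86 in shRRM2/shp16. The groups were apart, with shRRM2 lowest and shRRM2/shp16 between. BGN changed by -0.59 ± 0.039 (adjusted p 4.0e-17), 0.35 ± 0.04 (adjusted p 3.3e-10) and -0.24 ± 0.037 (adjusted p 3.6e-07) in the 3 comparisons. FMOD (fibromodulin) was at 34 ± 1.89, 45.6 ± 1.96 and 41.3 ± 1.36 CPM and was above vector control in shRRM2 (0.42) and in shRRM2/shp16 (0.28). Its difference between those 2 groups, -0.15 ± 0.052 (adjusted p 0.0149), did not pass without shRRM2 replicate c (-0.12, 0.072) or shRRM2/shp16 replicate a (-0.12, 0.0861). PODN (podocan) was at 21.5 ± 0.561, 25.6 ± 0.426 and 20.9 ± 0.357 CPM, with calls in shRRM2 against vector control (0.25) and shRRM2/shp16 against shRRM2 (-0.29). PRELP, near FMOD on chromosome 1, rested on 11 to 56 counts and in shRRM2/shp16 was below shRRM2 (-1.19, adjusted p 2.7e-04) and vector control (-1.65, adjusted p 2.5e-07). PRELP in shRRM2 against vector control (-0.46, adjusted p 0.064) passed without control replicate c (-0.56, 0.0423) or shRRM2 replicate a (-0.66, 0.021).

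Versican was the one large proteoglycan gene that climbed in both steps. VCAN (ENSG00000038427, chr5:83471465-83582303, plus strand) was at 732, 709.6 and 718 CPM in vector control, 1027, 1036 and 1074 in shRRM2, and 1542, 1542 and 1545 in shRRM2/shp16. No groups overlapped. VCAN rose by 0.54 ± 0.025 in shRRM2 (adjusted p 1.3e-22), by a further 0.56 ± 0.025 in shRRM2/shp16 against shRRM2 (adjusted p 1.1e-23) and by 1.10 ± 0.025 against vector control (adjusted p 1.7e-34), or 2.14-fold. HSPG2 (ENSG00000142798, chr1:21822245-21937297, minus strand), perlecan, went from 582, 560.0 and 562 CPM in vector control to 623, 651 and 634 in shRRM2 and 346, 335 and 315 in shRRM2/shp16. The shRRM2/shp16 libraries stood well below the other 6. HSPG2 changed by 0.16 ± 0.029 (adjusted p 5.0e-06), -0.94 ± 0.03 (adjusted p 6.2e-29) and -0.78 ± 0.03 (adjusted p 5.2e-26) in the 3 comparisons.

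The nidogens, which bridge laminin and collagen networks of basement membrane, moved in opposite directions. NID1 was at 226 ± 6.98 CPM in vector control, 168 ± 1.92 in shRRM2, and 221 ± 4.9 in shRRM2/shp16, with log2 fold changes of -0.43 in shRRM2 and 0.40 from shRRM2 to shRRM2/shp16. NID2 was at 843 ± 2.84, 1144 ± 26.6 and 707 ± 2.52 CPM, with log2 fold changes of 0.44 and -0.69 in the same comparisons. These calls had edgeR adjusted p-values of 1.5e-15, 1.2e-14, 1.0e-19 and 5.9e-27. NID2 shares 30.0% of its exon length with RTRAF on the other strand, and the counting's strand setting is not given in the sources used here. MGP, an inhibitor of calcification, rested on 5 to 40 counts a library. With 5 to 10 counts a library in vector control, MGP passed the low-count filter through the other groups, where it was higher. That selection favours its calls against vector control. Its level was 0.419, 0.28 and 0.298 CPM in vector control, 1.71, 2.31 and 2.12 in shRRM2, and 1.16, 1.15 and 1.24 in shRRM2/shp16, with no overlap. MGP was higher in shRRM2 by 2.57 ± 0.309 (adjusted p 1.4e-09) and in shRRM2/shp16 by 1.77 ± 0.34 (adjusted p 1.6e-05), and shRRM2/shp16 was below shRRM2 (-0.80 ± 0.24, adjusted p 0.00387).

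Levels of different genes were compared per kilobase of exon (CPM per kb, mean ± SD of 3 libraries). In vector control the highest were THBS1 at 916 ± 9.6, FN1 at 635 ± 8.9, TGFBI at 571 ± 9.36 and SPARC at 333 ± 3.15 CPM per kb, each step larger than the SDs. The order in shRRM2 was THBS1 at 1319 ± 26.4, FN1 at 857 ± 26.1, SPARC at 519.7 ± 2.38 and TGFBI at 503 ± 7.11, where SPARC and TGFBI had changed places. In shRRM2/shp16 TGFBI came first at 723 ± 11.3 CPM per kb, followed by THBS1 at 509 ± 3.22 and FN1 at 385 ± 4.31. LOX and TNC, at 123 ± 1.5 and 122 ± 2.45 CPM per kb in shRRM2/shp16, did not differ beyond their SDs. The length is the union of all annotated exons of a gene, which sets the order of BGN at 42.1 ± 0.299 and DCN at 35.8 ± 0.463 CPM per kb in vector control: it is 2453 bases for BGN and 12847 bases for DCN, and by CPM DCN was higher, at 459.6 against 103. The order of THBS1 and FN1 rests on this length too, which is 9158 bases for THBS1 and 17315 bases for FN1. By CPM FN1 was higher, at 10993 against 8387.5 in vector control and 14832 against 12079 in shRRM2. In shRRM2/shp16 FN1, at 6664 CPM, was above both TGFBI at 5647 and THBS1 at 4664. By CPM per kb MFAP4 ranked 16 in vector control, 26 in shRRM2 and 11 in shRRM2/shp16.

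**Figure D3:**
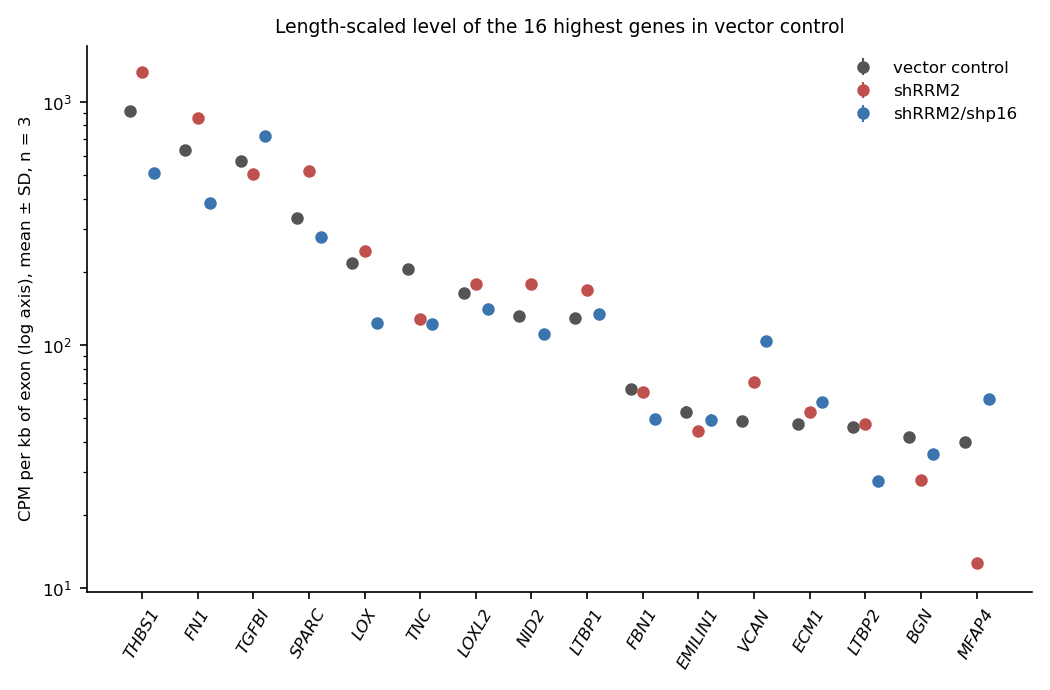
CPM per kilobase of exon (y axis, log scale) of the 16 genes with the highest levels in vector control (x axis), as the mean and SD of 3 libraries per group, the SD mostly smaller than the point. By this measure THBS1 is highest in vector control and shRRM2 and TGFBI in shRRM2/shp16, while by CPM FN1 is above both. MFAP4 spans 12.8 ± 0.499 to 59.8 ± 1.1 CPM per kb.

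Genes that build the sugar chains of proteoglycans, and the proteases and enhancers that act on these proteins, were read from 2 further lists chosen with earlier results known. Of 35 tested genes for glycosaminoglycan chains and hyaluronan, 18 were higher and 7 lower in shRRM2 than in vector control, 10 higher and 19 lower in shRRM2/shp16 than in shRRM2, and 10 higher and 13 lower in shRRM2/shp16 than in vector control. The background over all tested genes was 29.0% and 31.8%, 31.9% and 29.1%, and 30.0% and 32.4%. HAS2, the main hyaluronan synthase of fibroblasts, was at 127, 129 and 127 CPM in vector control, 115, 114 and 115 in shRRM2, and 20.1, 20.1 and 18.5 in shRRM2/shp16. The shRRM2/shp16 libraries were far below the rest. HAS2 was 5.85-fold lower than in shRRM2 (-2.55 ± 0.047, adjusted p 9.0e-38) and 6.52-fold lower than in vector control (-2.70 ± 0.046, adjusted p 3.8e-39). CSGALNACT1 and CSGALNACT2, which start chondroitin sulfate chains, went up where HAS2 went down. CSGALNACT1 was at 61.9 ± 1.96 CPM in shRRM2 but 157 ± 2.92 CPM in shRRM2/shp16 (1.34, adjusted p 2.0e-30), and CSGALNACT2 at 57.3 ± 2.91 and 114 ± 6.3 CPM (0.99, adjusted p 6.3e-23). CHST3, a chondroitin sulfotransferase, was lower in shRRM2/shp16 than in vector control (log2 fold change -1.26 ± 0.046, adjusted p 7.4e-27). SULF1, which trims sulfate from heparan sulfate, was at 32.2, 31.7 and 32.3 CPM in vector control, 108, 117 and 119 in shRRM2, and 15.5, 14.8 and 15.8 in shRRM2/shp16. SULF1 was 3.58-fold higher in shRRM2 than in vector control (adjusted p 4.1e-32) and 7.45-fold lower in shRRM2/shp16 than in shRRM2 (adjusted p 8.2e-38), with no overlap between groups.

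Of 29 tested proteases and assembly genes, 10 were higher and 11 lower in shRRM2 than in vector control, 11 higher and 8 lower in shRRM2/shp16 than in shRRM2, and 14 higher and 10 lower in shRRM2/shp16 than in vector control. Among all tested genes 29.0% and 31.8%, 31.9% and 29.1%, and 30.0% and 32.4% were higher and lower, and the first 2 pairs of counts are near those shares. The proteases that cut versican and aggrecan went in both directions. ADAMTS5 was at 19.4, 22.2 and 20.1 CPM in vector control, 21.8, 22.4 and 22.2 in shRRM2, and 227, 235 and 231 in shRRM2/shp16. Only the shRRM2/shp16 libraries were high, by 10.4-fold over shRRM2 (adjusted p 8.2e-43). ADAMTS1 was at 648 ± 7.08 CPM in vector control and 398 ± 13.8 CPM in shRRM2, a log2 fold change of -0.70, and at 1018 ± 5.82 CPM in shRRM2/shp16. ADAMTS9 was 3.29-fold higher in shRRM2/shp16 than in shRRM2 (adjusted p 1.7e-23). ADAMTS4 and ADAMTS15, of the same family, were lower in shRRM2/shp16 than in vector control, with log2 fold changes of -0.82 and -1.37. ADAMTSL1, a related protein without protease activity, was at 24.9, 29.4 and 25 CPM in shRRM2 but 2.27, 2.59 and 1.99 CPM in shRRM2/shp16, 11.5-fold lower (adjusted p 6.1e-29).

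TGM2, a transglutaminase that crosslinks fibronectin, was at 145, 148 and 147 CPM in vector control, 770.4, 782 and 791 in shRRM2, and 258, 257 and 258 in shRRM2/shp16, and no groups overlapped. TGM2 was 5.33-fold higher in shRRM2 than in vector control (adjusted p 1.9e-44) and 3.03-fold lower in shRRM2/shp16 than in shRRM2 (adjusted p 3.5e-39). PCOLCE, an enhancer of procollagen processing, was at 202, 214 and 202 CPM in vector control, 86.1, 81 and 83.1 in shRRM2, and 204, 204 and 208 in shRRM2/shp16. The shRRM2 libraries were the low ones, by 2.47-fold against vector control (adjusted p 3.6e-31). CTSK, a collagen- and elastin-cutting cathepsin, was 3.66-fold higher in shRRM2/shp16 than in vector control, from 13.4 ± 0.757 to 49.5 ± 0.852 CPM (adjusted p 1.8e-28). CTSS, another elastin-cutting cathepsin, was at 0.50 ± 0.0377 CPM in vector control, 3.29 ± 0.719 in shRRM2, and 15.4 ± 1.66 in shRRM2/shp16, with adjusted p-values of 2.0e-12 and 6.3e-20 for the 2 steps. Its vector control level rested on 9 to 11 counts a library. CTSS reached the mean log2 CPM of 2 needed for naming through its shRRM2/shp16 level.

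**Figure D4:**
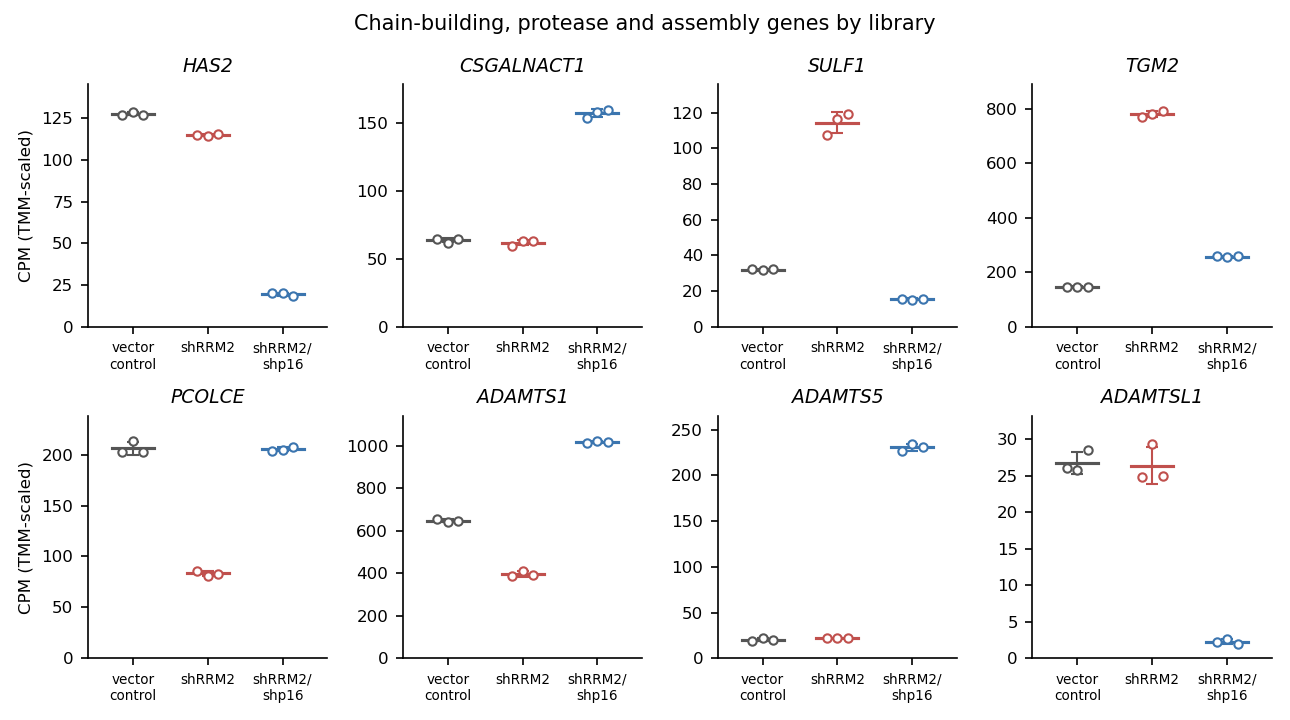
TMM-scaled CPM (y axis, from 0) of 8 genes of chain building, proteolysis and fibre assembly in the 9 libraries (x axis, by group), with circles for libraries, a line for the group mean and bars for the SD. HAS2 and ADAMTSL1 are low and CSGALNACT1 and ADAMTS5 high in shRRM2/shp16, SULF1 and TGM2 peak in shRRM2, and PCOLCE is low there.

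The authors' deposited table gives its own test of shRRM2/shp16 against shRRM2. There 22 of the 40 genes had q under 0.05 (the authors' deposited table), 10 higher and 12 lower, where the authors' deposited table has 14.9% of the 16561 tested genes higher and 13.6% lower. All 22 were also called from the counts. FN1 stands at -1.25 and THBS2 at 2.13 on the log2 scale in the authors' deposited table, with q 4.4e-04 for each. FBN1, LTBP1 and BGN, which were called from the counts, have q 0.153, 0.068 and 0.182 in the authors' deposited table. For 3 of the 40 genes the sign differed: the authors' deposited table lists 0.049 for DCN, 0.19 for LOXL3 and 0.14 for THBS3, none of which passed from the counts.

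Some calls depended on the input. With limma on the authors' log2 RPKM values, 9 genes were lower in shRRM2 than in vector control in place of 14, and THBS1, TGFBI, POSTN, ELN, FBN2, MFAP5, LOXL1 and NID1 did not pass in that comparison (adjusted p 0.116, 0.648, 0.717, 0.119, 0.436, 0.175, 0.544 and 0.0602). In shRRM2/shp16 against shRRM2 the calls of TNC, SPP1, ECM1, ELN, LTBP3, FMOD and MGP were lost (0.369, 0.332, 0.111, 0.0613, 0.326, 0.113 and 0.0799). Against vector control those of THBS1, POSTN, MFAP5, EMILIN1, LTBP4 and LOXL4 in shRRM2/shp16 were lost (0.0626, 0.594, 0.0757, 0.923, 0.468 and 0.673). On all 9 columns, limma on log2(RPKM + 0.1) gave 10 genes lower in shRRM2 than in vector control. The RPKM values of shRRM2 replicate c disagree with that library's counts. limma on log2(RPKM + 0.1) of the 8 other columns, an alternative added after seeing the data, gave 14 lower genes, and of the calls just listed it ended those of TNC, SPP1, LTBP3, FMOD, EMILIN1, LTBP4 and LOXL4 (0.636, 0.124, 0.0536, 0.339, 0.919, 0.0596 and 0.196). Without the filter on low counts, FBN2, FMOD, LTBP3, LOXL1, MFAP2, SPP1 and TNC also fell short in the comparison where a left-out library ended their call. Some runs gained calls, among them these. FBN1 passed in shRRM2 against vector control without the filter (edgeR adjusted p 0.00655). THBS3 and LTBP2 passed there with at least 10 counts in every sample (0.0243 and 0.0387). LTBP1 and FBLN1 in shRRM2/shp16 against vector control passed with at least 10 counts (0.0125 and 0.0251) and with limma on log2 RPKM (0.000409 and 0.0406).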

How the data were processed

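Per the labels' protocols, total RNA was DNase-treated, depleted of ribosomal RNA and made into stranded libraries. The authors deposited raw read counts per Ensembl gene in the HTSeq layout, whose 5 tally lines name no gene and were left out. The submitters' processing notes name TopHat2 2.0.9, Cufflinks 2.0.2, Cuffdiff and GRCh38. The annotation release and strand setting are not given in the sources used here. The authors also deposited log2 RPKM values, which recalculation from the counts showed to be log2(x + 1) with x in reads per base of exon, scaled to library size. 8 of the 9 columns matched the counts. The same table holds the authors' log2 fold changes and q-values between shRRM2/shp16 and shRRM2.

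edgeR 4.0.16 (R 4.3.3) was run on the counts: filterByExpr kept 16561 genes with 99.8% of the counts, libraries were scaled by TMM, and 1 quasi-likelihood fit of 9 libraries had 6 residual degrees of freedom. Tests were two-sided with Benjamini-Hochberg adjustment over all tested genes at 0.05. CPM per kb used the exon length recovered from the authors' values. Positions are from GENCODE release 29 on GRCh38. Full values are given for 14 fixed genes and the 5 highest and 5 lowest called genes per comparison whose groups did not overlap and whose mean log2 CPM reached 2. For each further list the 3 highest and 3 lowest were eligible. The genes and lists were chosen with earlier results of these data known. On simulated counts edgeR recovered 179 of 200 changed genes in shRRM2 against vector control, with 5 false calls among 16181 genes. The simulation changed few genes, none at low counts, and used a fixed spread, so its rates need not hold for the real libraries.

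No 2 replicates agreed within counting error (chi-square divided by its degrees of freedom 1.44 to 2.95). Alternatives were RLE factors, DESeq2 1.42.0, no filter, at least 10 counts in every sample, only the 6 libraries compared, a replicate block, limma 3.58.1 on the RPKM values, and leaving out each library.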

Additional observations from a re-analysis of the deposited data

How the results depend on the processing

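Over the 40 tested genes and 3 comparisons there were 120 results. Pairing of the libraries by replicate letter was not clear. Deviations of same-lettered libraries correlated at -0.08 to 0.18 over 10810 genes, and several libraries correlated best with another letter. A replicate block changed the call or sign of 0 of the 120 results, with 33 genes called in shRRM2 against vector control as without it. These values cannot exclude that same-lettered libraries were handled together. RLE factors moved 1 call and 1 sign, DESeq2 ended 4 calls, dropping the filter ended 7, and log2 RPKM as deposited ended 21. Genes lower in shRRM2 than in vector control numbered 14 in the counts and 9 with limma on log2 RPKM, with or without a minimum mean RPKM of 1. Leaving out 1 library gave 31 to 34 genes called in that comparison. limma on log2 RPKM with a minimum mean RPKM of 1 gave 6522 calls over all genes in shRRM2 against vector control in place of 10079 from the counts (7515 without the minimum). Of the other matrix glycoproteins it gave 18 in place of 31 there (24 without the minimum) and 21 in place of 39 in shRRM2/shp16 against vector control (31), and of the proteases 15 in place of 24 (21). Log2 RPKM as deposited adds 1 to values in reads per base of exon, which compresses differences, also those of high genes. In shRRM2 against vector control FN1 went from 0.432 to 0.163, THBS1 from 0.526 to 0.258 and TNC from -0.68 to -0.08. limma on log2(RPKM + 0.1) moved the median of all genes in shRRM2/shp16 against vector control from 0.015 to 0.107. The cause of this shift of the median and of the lost calls was not tested.

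Apart from TNC in shRRM2/shp16 against shRRM2, no call of these genes changed sign in any alternative run. TNC became 0.014 in the 8 matching RPKM columns. In values that had not passed, signs changed as follows in shRRM2 against vector control: FBN1 to 0.00028 with limma on log2 RPKM (both filters) and 0.0047 on log2(RPKM + 0.1), FBLN2 to 0.045 in the 8 columns and -0.107 to 0.0071 without 1 library, LTBP2 to -0.006 without a filter. LUM became 0.0027 with RLE, 0.0048 with DESeq2, 0.022 with at least 10 counts, 0.0041 with 6 libraries, 0.0013 on log2 RPKM (both filters), 0.091 on log2(RPKM + 0.1), 0.036 in the 8 columns and -0.064 to 0.033 without 1 library. In shRRM2/shp16 against shRRM2, THBS3 became 9.7e-05 on log2 RPKM (both filters), 0.025 on log2(RPKM + 0.1), 0.012 in the 8 columns and -0.127 to 0.0045 without 1 library. POSTN became -0.0003 and -0.0062 on the 2 RPKM scales, LOXL3 0.0062 without a filter, 0.0094 in the 8 columns and -0.091 to 0.044 without 1 library, and DCN 0.0087 in the 8 columns. In shRRM2/shp16 against vector control, ELN became 0.0019, PODN 0.00027 and NID1 0.0027 on log2 RPKM (both filters), and 0.061, 0.062 and 0.073 on log2(RPKM + 0.1) with 9 or 8 columns.

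Depth limits SPP1, MFAP5 and MGP, each with fewer than 10 counts in at least 1 library, and CTSS of the protease list, with 9 to 11 counts in vector control. SPP1, MFAP5 and MGP passed the low-count filter through the groups where they were higher, which favours their calls against the low group. Each is among the genes counted at 2-fold in at least 1 comparison. The counts of amplified reads carry no molecular identifiers, so counting error understates the true error.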

Other observations

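Matrix glycoproteins outside the 44 genes were read from a further list of 74, of which 48 were tested. In shRRM2 against vector control 19 were higher and 12 lower, in shRRM2/shp16 against shRRM2 14 were higher and 22 lower, and in shRRM2/shp16 against vector control 21 were higher and 18 lower. Of all tested genes, 29.0% and 31.8%, 31.9% and 29.1%, and 30.0% and 32.4% were higher and lower, so that 12 of 48 lower in the first and 14 of 48 higher in the second are near or below the background. The matrilins, adaptors that link collagen fibrils to other matrix proteins, went apart. MATN2 was at a mean of 41.4 ± 2.34 CPM in vector control, 17.2 ± 0.391 in shRRM2, and 12.7 ± 0.874 in shRRM2/shp16, 2.4-fold lower in shRRM2 than in vector control (edgeR adjusted p 5.9e-21). MATN3 was at 10.4, 11.8 and 10.6 CPM in vector control, 13.1, 12.2 and 13.7 in shRRM2, and 45.3, 47.7 and 46.6 in shRRM2/shp16, 3.58-fold higher in shRRM2/shp16 than in shRRM2 (adjusted p 1.1e-26). The MATN3 values of shRRM2/shp16 lay far above the other 6.

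HMCN1, a large fibulin relative, was at 37.1 ± 2.03 CPM in vector control (SD, n = 3), 96.1 ± 0.608 in shRRM2, and 65.4 ± 2.61 in shRRM2/shp16, 2.58-fold higher in shRRM2 than in vector control (adjusted p 1.2e-27). SMOC1, a SPARC relative, was at 31.1 ± 1.44, 23.3 ± 0.412 and 81.2 ± 1.83 CPM, 3.48-fold higher in shRRM2/shp16 than in shRRM2 (adjusted p 1.2e-30). EMILIN2, a relative of EMILIN1, was 2.89-fold higher in shRRM2/shp16 than in shRRM2 (adjusted p 8.6e-18), where EMILIN1 was 1.11-fold higher. FNDC1, a fibronectin-domain protein, was 2.31-fold higher in shRRM2 than in vector control (adjusted p 1.5e-14) and 2.8-fold lower in shRRM2/shp16 than in shRRM2 (adjusted p 4.9e-17).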
